A study of Mus musculus with 6 samples.

Results

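The matrix metalloproteinases *Mmp2*, *Mmp9*, *Mmp11*, *Mmp13*, *Mmp14* and *Mmp16* and the tissue inhibitors of metalloproteinases *Timp1*, *Timp2*, *Timp3* and *Timp4* were examined in newborn mouse skull bone. These 10 genes were taken by symbol from RNA-seq count tables that list 44556 genes. The libraries came from parietal bone, the flat bone on each side of the skull roof, of newborn C57BL/6 mice with the genotype OsxCre or OsxCre;Stat3fl/fl, with 3 libraries per genotype. The methods give 3 mice per genotype for this experiment, which equals the number of libraries. Every mouse, controls included, carried the OsxCre transgene, in which the *Osx* (*Sp7*) promoter drives Cre recombinase mainly in osteoblast precursors. In OsxCre;Stat3fl/fl mice Cre removes a floxed part of *Stat3*, the gene of a transcription factor activated by cytokines, while other cells of the bone keep the gene. The question was how the loss of *Stat3* in the osteoblast lineage changed gene expression in the bone of littermates.

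Matrix metalloproteinases are zinc endopeptidases that cut collagens, gelatin, proteoglycans and other proteins of the extracellular matrix. Most are secreted as inactive proenzymes, some are held on the cell membrane, and all are blocked by the small TIMP proteins, which bind the active site. In bone, *Mmp13* and *Mmp14* of osteoblasts and hypertrophic chondrocytes and *Mmp9* of osteoclasts serve the turnover of collagenous matrix, and *Runx2* and AP-1 factors are known to act on the *Mmp13* promoter. *Timp1* is known as a gene induced by cytokines that signal through STAT3.

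The libraries held between 9686843 and 12080044 counts in OsxCre and between 8193651 and 8771037 in OsxCre;Stat3fl/fl, so each OsxCre;Stat3fl/fl library was smaller than each OsxCre library. The *Stat3* count itself was higher in every library labelled OsxCre;Stat3fl/fl than in every OsxCre library, as for 10.8% of all genes tested. It was at 153, 155 and 155 CPM against 150, 135 and 141 CPM in OsxCre, where CPM are counts scaled to a common library size by TMM. The log2 fold change of OsxCre;Stat3fl/fl against OsxCre was 0.12, with a standard error (SE) of 0.07 and an adjusted p of 0.442 by the quasi-likelihood test of edgeR. A count over the whole gene in whole bone includes exons outside the floxed part and cells without Cre. How far the deletion went, and whether the labels are right, was not tested and cannot be told from these counts. OsxCre;Stat3fl/fl therefore stands here for the libraries labelled so. Male newborns are named in the paper, while the labels give no sex. *Xist* had between 881 and 1059 CPM and neither *Ddx3y* nor *Kdm5d*, which are Y-linked, had a count in any library of either genotype. This is a female pattern in every library and differs from the sex that the paper names. Markers of osteoblasts (*Col1a1*, *Ibsp*, *Alpl*) and of osteoclasts (*Acp5*, *Ctsk*) were counted in every library, and so were those of skeletal muscle, at a summed 31099 CPM or more.

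In the mouse genome GRCm38.p6 (RefSeq), *Timp4* lies on chromosome 6 from 115244444 to 115252205, inside the span of *Syn2*. *Mmp13* lies on chromosome 9 from 7272514 to 7283333, and *Mmp14* on chromosome 14 from 54431598 to 54442456. The other MMP members are *Mmp2* on chromosome 8 (92827290 to 92853421), *Mmp9* on chromosome 2 (164940326 to 164955850), *Mmp11* on chromosome 10 (75923221 to 75932502) and *Mmp16* on chromosome 4 (17853072 to 18117479). *Timp1* is on chromosome X (20870166 to 20874737), *Timp2* on chromosome 11 (118301061 to 118355411) and *Timp3* on chromosome 10 (86300412 to 86349505). The 250 bases before the annotated start of *Timp4*, *Mmp13* and *Mmp14* are printed because *Timp4* was the member that passed the test and *Mmp13* and *Mmp14* were those with a motif match among the 7 members whose promoter was in the RefSeq table used here (not *Mmp2*, *Mmp9* or *Mmp16*). All are written 5′ to 3′ on the strand of the gene, and capitals mark matches to TGANTCA (AP-1) or to TGTGGT (RUNX), both searched on both strands along with TTCNNNGAA (STAT).
*Timp4*, chr6:115252206-115252455, minus strand: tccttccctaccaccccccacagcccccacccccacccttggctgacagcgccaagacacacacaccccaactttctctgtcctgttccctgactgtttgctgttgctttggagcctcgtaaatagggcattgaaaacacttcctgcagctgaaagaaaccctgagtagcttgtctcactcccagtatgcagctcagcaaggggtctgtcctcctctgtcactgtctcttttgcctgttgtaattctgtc
*Mmp13*, chr9:7272264-7272513, plus strand: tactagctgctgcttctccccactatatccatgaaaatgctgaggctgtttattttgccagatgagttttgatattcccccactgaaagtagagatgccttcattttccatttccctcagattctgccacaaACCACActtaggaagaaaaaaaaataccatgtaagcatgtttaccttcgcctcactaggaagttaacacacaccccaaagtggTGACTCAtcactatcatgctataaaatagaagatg
*Mmp14*, chr14:54431348-54431597, plus strand: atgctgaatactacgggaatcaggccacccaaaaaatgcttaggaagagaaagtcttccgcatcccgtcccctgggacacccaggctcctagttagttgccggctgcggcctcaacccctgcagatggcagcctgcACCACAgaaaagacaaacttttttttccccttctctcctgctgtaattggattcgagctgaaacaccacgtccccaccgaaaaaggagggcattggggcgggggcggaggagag
The *Mmp13* sequence held TGACTCA, whose first base is at -35 from the start, and ACCACA, the reverse complement of TGTGGT, at -118. The *Mmp14* sequence held ACCACA at -114. The *Timp4* sequence held no match to the 3 motifs, and the STAT letters were found in none of the 7 windows. Among 32851 promoter windows of the same length, 6.75% held the AP-1 letters, 14.1% the RUNX letters and 7.02% the STAT letters. A match describes letters only, and its absence says nothing about the factor outside the window.

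All 10 genes had enough counts to be tested. In edgeR, with p adjusted over the 15600 genes tested and a threshold of 0.05, *Timp4* rose in the libraries labelled OsxCre;Stat3fl/fl and none of the other 9 genes passed. The same line was passed by 1.26% of all genes tested in either direction, by 0.776% as higher and by 0.481% as lower. At an unadjusted p under 0.05 there were 2 of the 10, *Timp4* and *Mmp14*, where 16.4% of all genes passed. The CPM of the genotypes did not overlap for 3 of the 10, higher in OsxCre;Stat3fl/fl for *Timp4* and lower for *Mmp2* and *Mmp14*, though *Mmp2* overlapped when libraries were scaled by totals or by the upper quartile. No overlap was found for 23.0% of all genes, 10.8% as higher and 12.2% as lower. The median log2 fold change was -0.02 over the 10 genes and 0.00 over all genes tested.

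**Figure D1:**
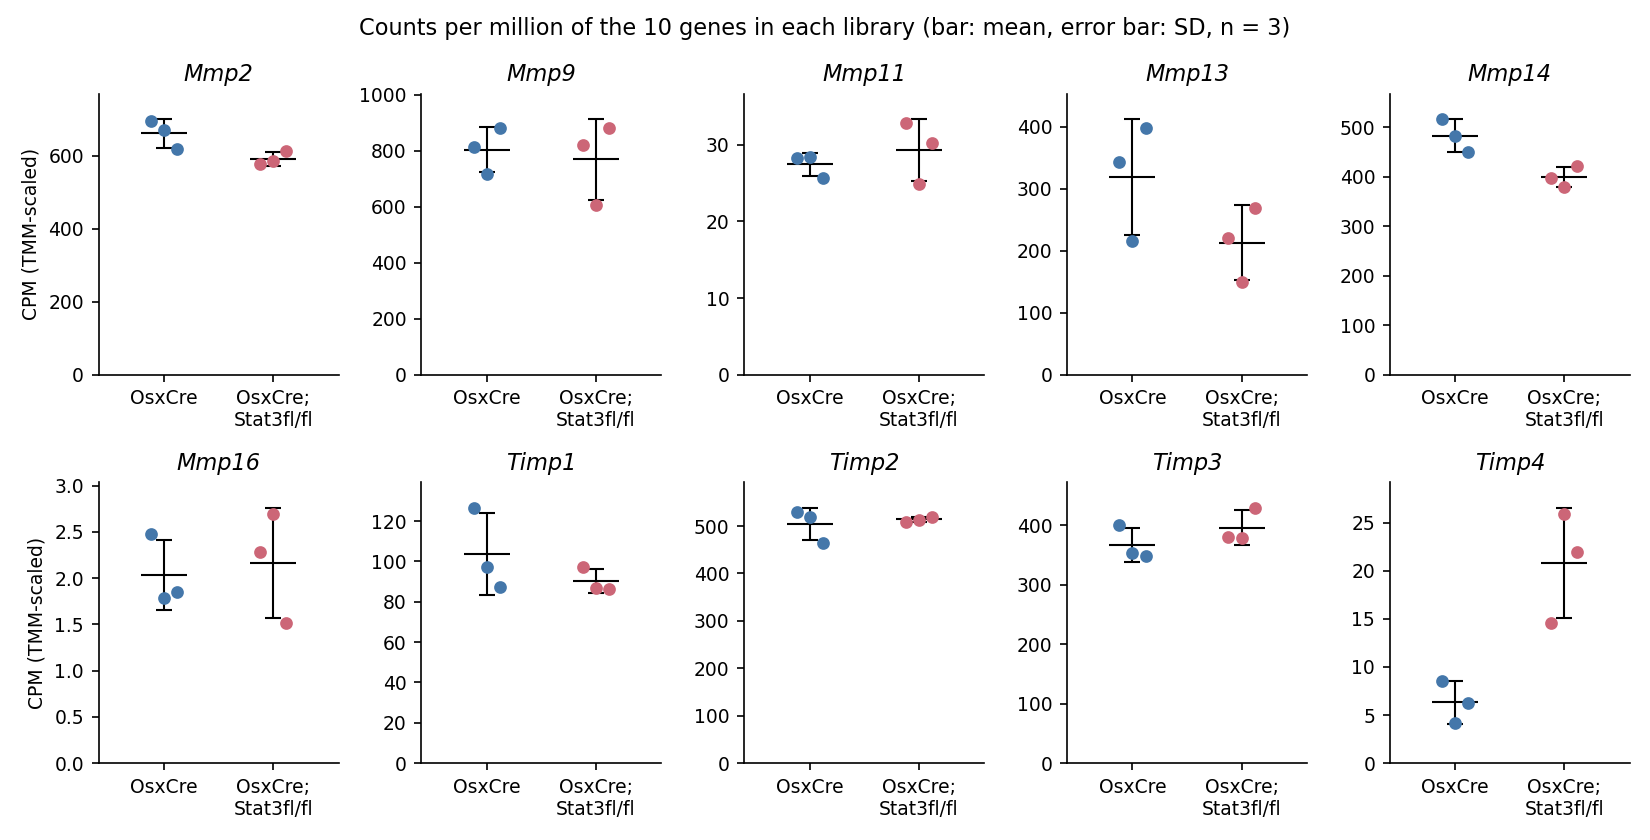
TMM-scaled CPM (vertical axis, from 0) of the 10 genes in each of 3 OsxCre and 3 OsxCre;Stat3fl/fl libraries, with points for libraries, a long bar for the mean and an error bar for the SD. *Timp4* lies between 4.16 and 8.56 CPM in OsxCre and between 14.5 and 25.9 CPM in OsxCre;Stat3fl/fl, while the points of most other genes overlap.

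*Timp4*, an inhibitor known from heart, muscle and fat, was the member with the largest fold change. It had 90, 42 and 74 counts in the OsxCre libraries and 121, 211 and 188 in the libraries labelled OsxCre;Stat3fl/fl. Scaled by TMM, this was 8.56, 4.16 and 6.21 CPM against 14.5, 25.9 and 21.99 CPM. Each OsxCre;Stat3fl/fl library was thus above each OsxCre library, although the OsxCre;Stat3fl/fl libraries were the smaller ones. The means were 6.31 ± 2.20 and 20.8 ± 5.76 CPM (SD, n = 3 libraries, exact permutation p = 0.1, two-sided, the smallest that 3 against 3 allow). The log2 fold change was 1.72 (SE 0.30, adjusted p = 0.0430 in edgeR), or 3.29-fold with a 95% interval from 2.04 to 5.29. The call rested on all 6 libraries: without any one of them the log2 fold change was between 1.49 and 1.998 and the adjusted p between 0.0558, without OsxCre;Stat3fl/fl library 1, and 0.174, without OsxCre;Stat3fl/fl library 3. Calls were fewer over all genes too, at 196 with all 6 libraries and between 12 and 103 with one left out.

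Among genes known from skeletal muscle, 6 of 10 markers had higher CPM in every OsxCre;Stat3fl/fl library than in every OsxCre library and 1, *Myh4*, lower, against 10.8% and 12.2% of all genes. At an adjusted p under 0.05, *Myh3* (embryonic myosin heavy chain) rose by a log2 fold change of 1.71 and *Myh4* (a fast adult isoform) fell by 3.61 on the log2 scale, with adjusted p-values of 0.0204 and 3.87e-05 in edgeR. Leaving out one library at a time, *Myh4* kept its call in 6 of 6 fits and *Myh3* in 2 of 6, with adjusted p-values of *Myh3* up to 0.0967. DESeq2 called 7 of the 10 (*Ckm*, *Myh3*, *Myh4*, *Myh8*, *Mylpf*, *Tnni2* and *Tnnt3*), against 3.38% of all genes tested. In limma-voom *Myh3* and *Myh4* were called, against 1.15% of all genes, and in edgeR 1.26% of all genes passed. The summed level of the muscle list was between 31099 and 33507 CPM in OsxCre and between 36413 and 54384 CPM in OsxCre;Stat3fl/fl, and no marker of the list was at 0. The summed adipocyte list, with 5 of 6 markers tested and 0 passing in edgeR, DESeq2 or limma-voom or at an unadjusted p under 0.05, was between 530 and 1946 CPM in OsxCre and between 824 and 1782 CPM in OsxCre;Stat3fl/fl. Relative to its OsxCre mean, *Timp4* was at 230%, 410% and 348% in the OsxCre;Stat3fl/fl libraries, the muscle list at 135%, 168% and 113% and the endothelial list at 102%, 121% and 113%. The adipocyte list was at 78.9%, 171% and 136%. Within the muscle list *Myh3* had the highest log2 fold change, about that of *Timp4*, where the median of the list was 0.54. The part of muscle, fat or vessel cells in the result was not tested. In whole bone, more cells of a type and more RNA per cell cannot be told apart.

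*Mmp14* encodes the membrane-bound collagenase MT1-MMP, which also activates the proenzyme of *Mmp2* together with TIMP2. Its CPM were 517, 482 and 451 in OsxCre and 398, 379 and 421 in OsxCre;Stat3fl/fl. The lowest OsxCre library was above the highest OsxCre;Stat3fl/fl library, by less than the SD within OsxCre. The log2 fold change was -0.27 (SE 0.09, unadjusted p = 0.0150, adjusted p = 0.183 in edgeR), or 1.21-fold lower, and did not pass.

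*Mmp2*, which encodes gelatinase A, had 695, 672 and 619 CPM in OsxCre and 577, 587 and 614 CPM in OsxCre;Stat3fl/fl. The genotypes were apart by a few CPM, between the third OsxCre and the third OsxCre;Stat3fl/fl library. This gave a log2 fold change of -0.16 (SE 0.09, adjusted p = 0.406 in edgeR), with a 95% interval from -0.36 to 0.04. *Mmp16*, which encodes the membrane-type enzyme MT3-MMP, was counted between 13 and 26 times per library, at 2.47, 1.78 and 1.85 CPM in OsxCre and 2.28, 2.70 and 1.52 CPM in OsxCre;Stat3fl/fl. The highest and the lowest value were both in OsxCre;Stat3fl/fl. Its log2 fold change of 0.09 had a 95% interval from -0.62 to 0.80, so a change in either direction within these bounds remained possible.

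*Mmp13* encodes collagenase 3, which cuts fibrillar collagen and marks terminal osteoblasts and hypertrophic chondrocytes. Its CPM were 344, 216 and 398 in OsxCre and 221, 149 and 269 in OsxCre;Stat3fl/fl. OsxCre library 2 lay below 2 of the OsxCre;Stat3fl/fl libraries, so the genotypes overlapped, and the SD was 29.2% of the mean in OsxCre and 28.4% in OsxCre;Stat3fl/fl. The log2 fold change of -0.58 was the lowest among the 10 genes but did not pass (SE 0.26, unadjusted p = 0.0589, adjusted p = 0.326 in edgeR). Its 95% interval ran from -1.19 to 0.03, and the value was between -0.80 and -0.37 with one library left out.

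Osteoblasts and hypertrophic chondrocytes are its usual sources. The summed osteoblast list, most of which is *Col1a1*, was between 14349 and 19335 CPM in OsxCre and between 13329 and 16969 CPM in OsxCre;Stat3fl/fl, and *Ibsp* (bone sialoprotein) fell as 1 of its 10 markers, by 0.66 on the log2 scale (adjusted p = 0.0213 in edgeR). *Ibsp* kept its call in 2 of 6 fits with one library left out, with adjusted p-values up to 0.105. *Alpl* (alkaline phosphatase) was also lower in every OsxCre;Stat3fl/fl library than in every OsxCre library, at a log2 fold change of -0.54 (unadjusted p = 0.000861, adjusted p = 0.0578 in edgeR). These were the 2 of 10 osteoblast markers at an unadjusted p under 0.05, a share near the 16.4% of all genes. DESeq2 called both and limma-voom called *Ibsp*, where they called 3.38% and 1.15% of all genes and edgeR called 1.26%. The summed cartilage list, most of which is *Col2a1*, was between 1857 and 3254 CPM in OsxCre and between 2826 and 3621 CPM in OsxCre;Stat3fl/fl, above the OsxCre mean in each OsxCre;Stat3fl/fl library, where *Mmp13* was below its own in each. *Col10a1*, the collagen of hypertrophic chondrocytes, had 35.5, 39.4 and 114 CPM in OsxCre and 84.8, 50.1 and 79.3 CPM in OsxCre;Stat3fl/fl, so that OsxCre;Stat3fl/fl library 2 was below the OsxCre mean of 63.1 CPM, and *Ihh* was just below its own mean there. None of the 8 cartilage markers tested passed in edgeR, DESeq2 or limma-voom, and 1 had an unadjusted p under 0.05. Their part in the level of *Mmp13* was not tested.

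*Mmp9*, gelatinase B, is made by osteoclasts and stored in neutrophils. It had 815, 718 and 881 CPM in OsxCre and 821, 606 and 881 CPM in OsxCre;Stat3fl/fl. The highest values were 880.8 CPM in OsxCre library 3 and 880.9 CPM in OsxCre;Stat3fl/fl library 3, and the ranges overlapped. This gave a log2 fold change of -0.06 (SE 0.15, adjusted p = 0.884 in edgeR), with a 95% interval from -0.42 to 0.29.

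*Mmp9* and the summed osteoclast list, most of which is *Ctsk* and *Acp5*, were lowest in the same libraries. Relative to the OsxCre mean, *Mmp9* was at 89.3% in OsxCre library 2 and at 75.3% in OsxCre;Stat3fl/fl library 2, and the summed osteoclast list was at 91.8% and 84.5% there. In the other 4 libraries both were above the OsxCre mean, *Mmp9* at 101% to 110% and the list at 103% to 111%. Single markers differed from the sum: *Ocstamp* was highest among the OsxCre libraries in library 2, and *Itgb3* in OsxCre;Stat3fl/fl library 2 (85.9 CPM) was above its OsxCre mean (79.2 CPM). None of the 10 osteoclast markers passed in edgeR and 2 had an unadjusted p under 0.05, a share near the 16.4% of all genes. DESeq2 and limma-voom each called 1, *Ocstamp*, where they called 3.38% and 1.15% of all genes. The neutrophil list was at 42.0% to 57.8% in the OsxCre;Stat3fl/fl libraries. The part of osteoclasts or neutrophils in the level of *Mmp9* was not tested.

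**Figure D2:**
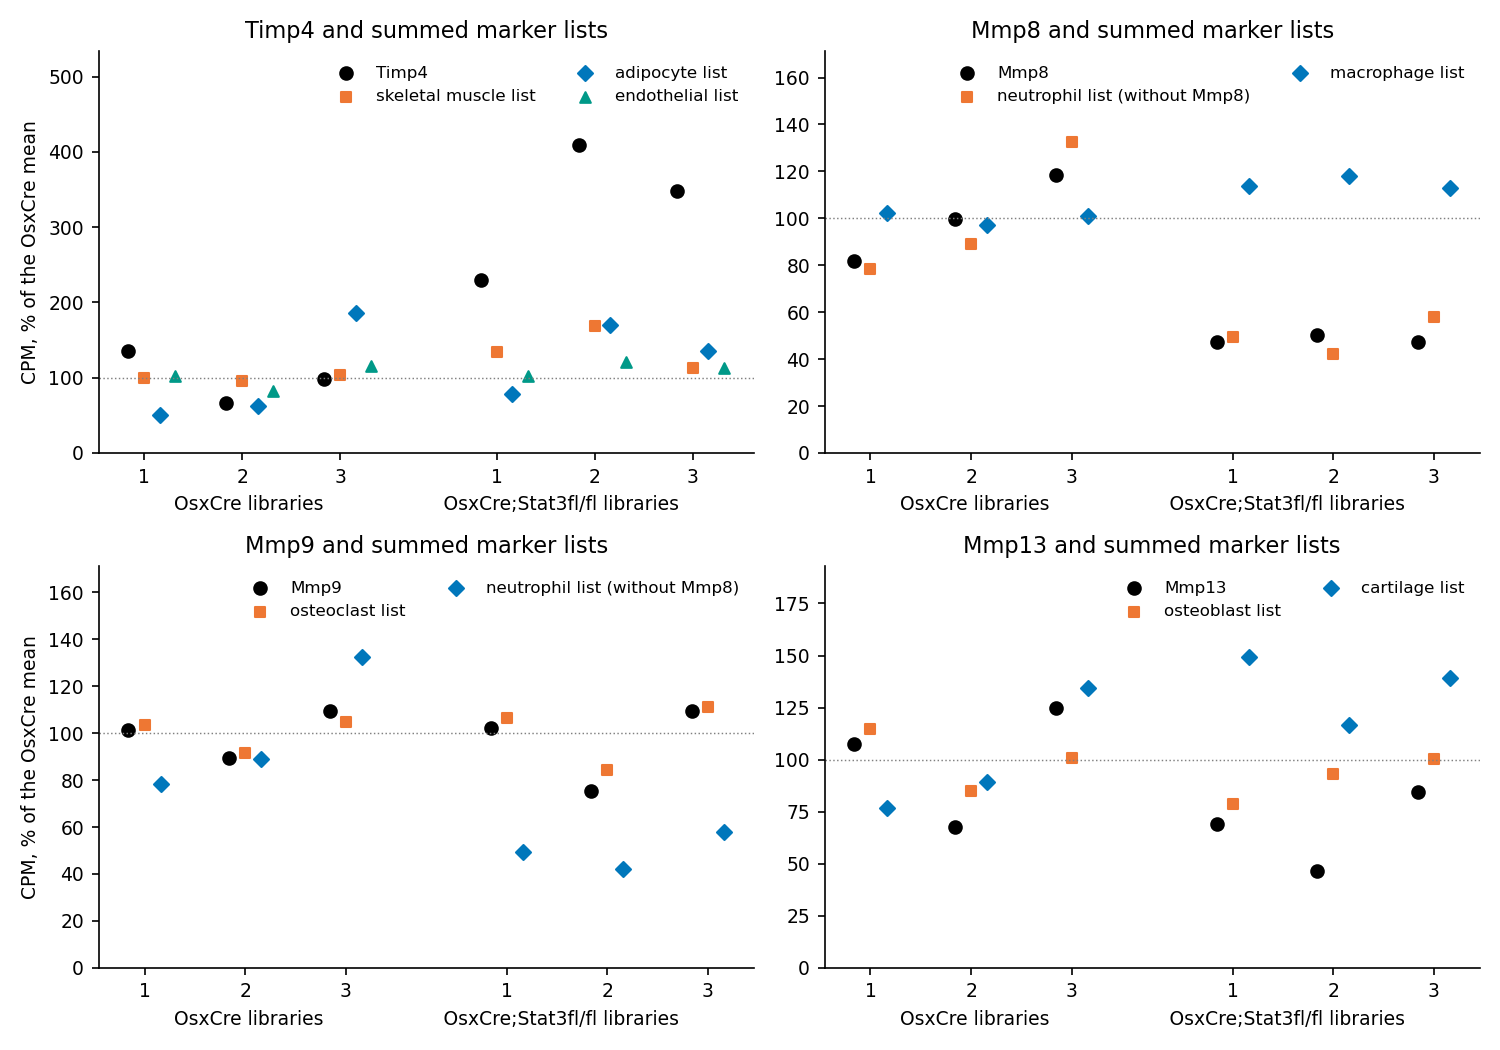
CPM as a percent of the OsxCre mean (vertical axis, from 0) in each library for *Timp4*, *Mmp8*, *Mmp9* and *Mmp13*, each beside the summed CPM of marker lists; the neutrophil list is summed without *Mmp8*. *Mmp9* and the osteoclast list lie close together in each library, and *Mmp8* and the neutrophil list are both at or below 57.8% in all OsxCre;Stat3fl/fl libraries.

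*Mmp11*, the stromelysin 3 gene known from fibroblasts, had 28.3, 28.4 and 25.7 CPM in OsxCre and 32.8, 24.9 and 30.3 CPM in OsxCre;Stat3fl/fl. The genotypes overlapped, and the log2 fold change was 0.10 (SE 0.12, adjusted p = 0.755 in edgeR).

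None of the other TIMP genes passed. *Timp2*, whose protein inhibits MMPs and also takes part in the activation of MMP2, had 530, 519 and 465 CPM in OsxCre and 508, 514 and 520 CPM in OsxCre;Stat3fl/fl. Its log2 fold change of 0.03 had a 95% interval from -0.17 to 0.22 (adjusted p = 0.921 in edgeR), and its sign turned to -0.021 when libraries were scaled by their totals. *Timp3*, whose protein binds to the matrix and also inhibits ADAM and ADAMTS enzymes, had 400, 353 and 347 CPM in OsxCre and 380, 378 and 430 CPM in OsxCre;Stat3fl/fl. The genotypes overlapped, and the log2 fold change was 0.11 with a 95% interval from -0.11 to 0.33 (adjusted p = 0.620 in edgeR).

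*Timp1* had 127, 97.2 and 87.2 CPM in OsxCre and 97.3, 86.8 and 86.5 CPM in OsxCre;Stat3fl/fl. OsxCre library 1 was high and the other libraries of both genotypes lay close together. The log2 fold change was -0.20 (SE 0.14, adjusted p = 0.524 in edgeR), and it was -0.03 without OsxCre library 1. The 95% interval ran from -0.52 to 0.12, so a fall to 0.698 of the OsxCre level was within the bounds.

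*Timp1*, *Timp3* and *Timp4* lie inside the genes of the synapsins *Syn1*, *Syn3* and *Syn2*, neuronal proteins, on the opposite strand. In the GENCODE annotation of mm9, 21.3% of the exonic bases of *Timp3* were shared with exons of *Syn3*, and 0% of those of *Timp1* and *Timp4* with other genes. The library kit does not mark strand, so reads from the shared bases cannot be told apart. *Syn3* had between 1.47 and 7.63 CPM and *Syn2* between 0 and 4 counts per library, far under *Timp3* and *Timp4*, and *Syn1* had between 2.94 and 24.1 CPM. Neither *Syn1* nor *Syn3* passed in edgeR, DESeq2 or limma-voom or at an unadjusted p under 0.05. The neuron list, whose sum was between 86.8 and 401 CPM in OsxCre and between 33.8 and 330 CPM in OsxCre;Stat3fl/fl, varied across libraries in the same manner as *Syn1* and was not set apart by genotype.

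Levels of different genes were compared as CPM per kb of exon in the mm9 annotation. In OsxCre, *Mmp9* (227 ± 23.1 CPM per kb, SD, n = 3) was first, followed by *Mmp2* (218 ± 12.8), *Mmp14* (186 ± 12.7), *Timp2* (129 ± 8.84), *Mmp13* (119 ± 34.8), *Timp1* (117 ± 23.1), *Timp3* (45.01 ± 3.54), *Mmp11* (10.4 ± 0.574), *Timp4* (4.46 ± 1.56) and *Mmp16* (0.235 ± 0.0440). The libraries of *Mmp9* and *Mmp2* overlapped, as did those of *Timp2* and *Mmp13* and of *Mmp13* and *Timp1*, and the other neighbours in this order did not. In OsxCre;Stat3fl/fl the order changed for 2 neighbouring pairs: *Timp1* (102 ± 6.90 CPM per kb) stood before *Mmp13* (79.6 ± 22.6), and *Timp4* (14.7 ± 4.07) before *Mmp11* (11.1 ± 1.53), with overlapping libraries in both pairs. *Mmp9* and *Mmp2* also overlapped there. *Timp4* thus remained the TIMP gene with the lowest level per length, at 1.51% of the summed level of the 4 TIMP genes in OsxCre and 4.95% in OsxCre;Stat3fl/fl.

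**Figure D3:**
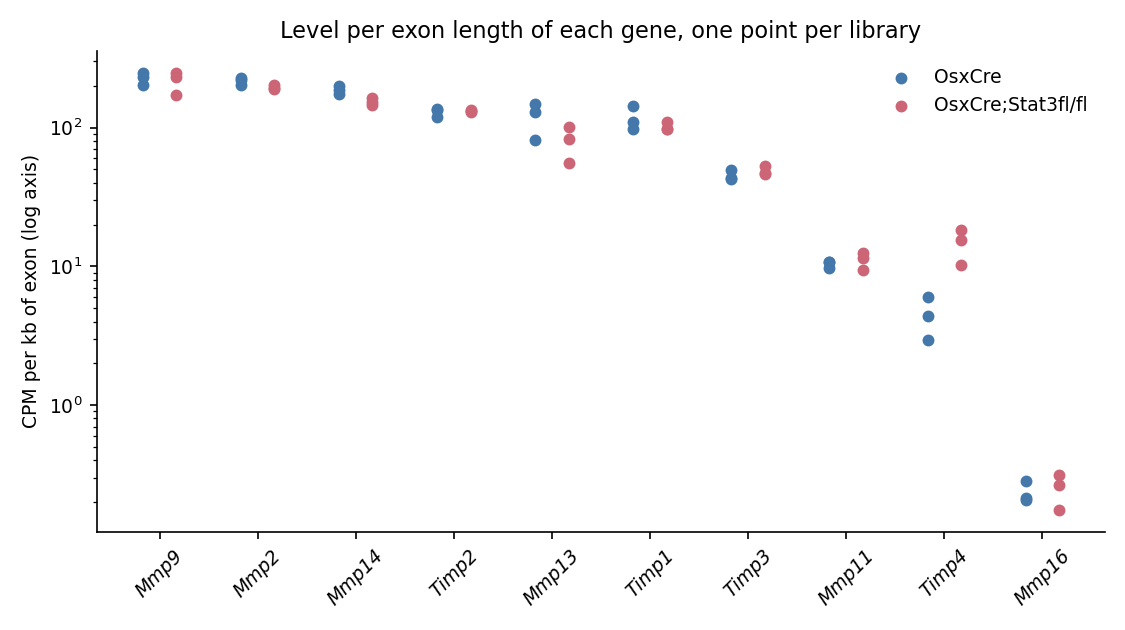
CPM per kb of exon (vertical log axis) of each of the 10 genes in the 3 OsxCre and 3 OsxCre;Stat3fl/fl libraries, 1 point per library, ordered by the OsxCre mean. Means span from 0.235 for *Mmp16* to 227 for *Mmp9* in OsxCre, and *Timp4* is the gene whose OsxCre;Stat3fl/fl points lie furthest from its OsxCre points.

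Summed per length, the 6 MMP genes had 797, 701 and 785 CPM per kb in OsxCre and 670, 576 and 725 CPM per kb in OsxCre;Stat3fl/fl. The 4 TIMP genes had 334, 289 and 265 CPM per kb in OsxCre and 297, 294 and 299 CPM per kb in OsxCre;Stat3fl/fl. The ratio of the sums was 2.39, 2.43 and 2.96 in OsxCre and 2.26, 1.96 and 2.42 in OsxCre;Stat3fl/fl, so the genotypes overlapped in the ratio.

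The count tables list another 17 MMP genes, of which 8 had enough counts to be tested. *Mmp8*, the collagenase of neutrophil granules, fell in the libraries labelled OsxCre;Stat3fl/fl. It had 9.33, 11.4 and 13.5 CPM in OsxCre and 5.40, 5.76 and 5.38 CPM in OsxCre;Stat3fl/fl, a log2 fold change of -1.05 (adjusted p = 0.0456 in edgeR). All OsxCre;Stat3fl/fl libraries were below all OsxCre libraries. The call was lost without any one library, with adjusted p-values between 0.0963 and 0.174 over the 6 libraries, and in limma-voom, with 0.0627.

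Some neutrophil genes were lower beside *Mmp8*. Of 9 neutrophil markers tested, *Mmp8* among them as a member of both lists, *S100a9* and *Retnlg* also fell, by 1.254 and 1.67 on the log2 scale, and 6 had lower CPM in every OsxCre;Stat3fl/fl library than in every OsxCre library, as 12.2% of all genes did. DESeq2 called 7 of the 9 (*Camp*, *Lcn2*, *Ltf*, *Mmp8*, *Retnlg*, *S100a8* and *S100a9*), against 3.38% of all genes tested. In limma-voom *Retnlg* and *S100a9* were called, against 1.15% of all genes, and in edgeR 1.26% of all genes passed. With one library left out, *Retnlg* kept its call in 4 of 6 fits, with adjusted p-values up to 0.0770, and *S100a9* in 0 of 6, with adjusted p-values up to 0.157. *Lcn2*, the remaining marker whose genotypes did not overlap, was higher. *Mpo* overlapped at a log2 fold change of 0.18, and *Elane*, with too few counts to be tested, had means of 0.805 CPM in OsxCre and 1.22 CPM in OsxCre;Stat3fl/fl. Without *Mmp8*, the list summed to 320, 363 and 541 CPM in OsxCre and to 201, 172 and 236 CPM in OsxCre;Stat3fl/fl. *Elane* had 0 counts in OsxCre;Stat3fl/fl library 1, and no other marker of the list was at 0 in any library. The part of neutrophil number in the fall of *Mmp8* was not tested.

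Of the other MMP genes, *Mmp23* (a membrane-anchored MMP) and *Mmp19* also had genotypes that did not overlap, and *Mmp19* is named because of its values. *Mmp23* had 74.3, 62.1 and 54.5 CPM in OsxCre and 37.3, 47.4 and 32.2 CPM in OsxCre;Stat3fl/fl, a log2 fold change of -0.71 (adjusted p = 0.0939 in edgeR). *Mmp19* had 14.3, 14.7 and 12.9 CPM in OsxCre and 20.4, 15.6 and 20.2 CPM in OsxCre;Stat3fl/fl, a log2 fold change of 0.43 (adjusted p = 0.195). Neither passed in the main edgeR fit, while DESeq2 and edgeR without a filter on low counts called *Mmp23*. *Mmp15*, with *Mmp23* the most counted of the other MMP genes, had 53.5 ± 2.48 and 52.4 ± 5.93 CPM (SD, n = 3). *Mmp24* varied from 1.23 to 13.2 CPM across libraries, with the highest values in libraries where the neuron list was high, in both genotypes. The 9 MMP genes that were not tested had at most 10 counts in any library, and 4 of them, *Mmp1a*, *Mmp1b*, *Mmp7* and *Mmp21*, had 0 counts in all 6, where a library's floor of 3 counts is between 0.252 and 0.368 CPM.

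**Figure D4:**
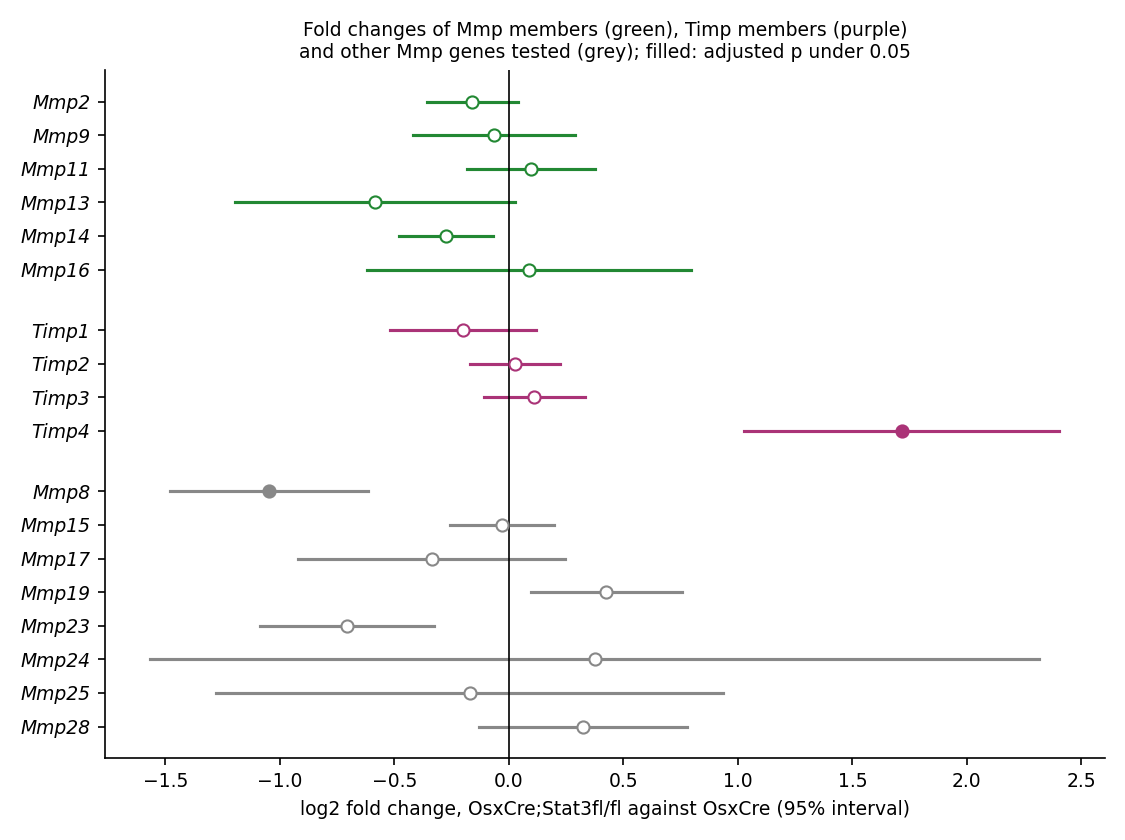
Log2 fold change of OsxCre;Stat3fl/fl against OsxCre (horizontal axis) with its 95% interval for the 6 MMP genes, the 4 TIMP genes and the 8 other MMP genes tested; filled points have an adjusted p under 0.05. *Timp4* at 1.72 and *Mmp8* at -1.05 are the filled points, and *Mmp24* and *Mmp25* have the widest intervals.

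Lists of related proteases, inhibitors and their partners were read against all genes tested, of which 1.26% passed in edgeR and 16.4% had an unadjusted p under 0.05. Of all genes, DESeq2 called 3.38%, limma-voom 1.15% and edgeR without a filter on low counts 1.53%. Of 18 ADAMTS genes tested (proteases of proteoglycans and procollagens, which TIMP3 inhibits), 0 passed in the main edgeR fit or limma-voom and 2 had an unadjusted p under 0.05. *Adamts1* was called by DESeq2 and by edgeR without a filter on low counts. The median log2 fold change of the 18 was 0.01, and the most counted, *Adamts10* and *Adamts2*, had values of 0.07 and 0.03. Of 8 ADAM sheddases tested, 0 passed in edgeR, DESeq2 or limma-voom and 2 had an unadjusted p under 0.05, with a median of 0.15. *Adam15* and *Adam12*, the most counted of these, had log2 fold changes of 0.05 and -0.37.

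Another list held genes that activate, anchor or clear MMPs, such as the proprotein convertase *Furin*, the membrane inhibitor *Reck* and the plasminogen activators. Of 14 tested, 0 passed in the main edgeR fit or limma-voom and 4 had an unadjusted p under 0.05. *Thbs1* was called by DESeq2 and by edgeR without a filter on low counts. The median of the 14 was 0.08. *Thbs2* and *Lrp1*, a matricellular protein and an endocytic receptor that take part in the clearance of MMP2, had log2 fold changes of 0.21 and 0.03. Of 10 genes for collagen uptake and lysosomal proteolysis, *Ctsl* (cathepsin L) rose, 4 had an unadjusted p under 0.05, and the genotypes did not overlap for 6, 5 higher and 1 lower in OsxCre;Stat3fl/fl, where 10.8% of all genes were higher and 12.2% lower without overlap. The lower one was *Mrc2*, a receptor for collagen uptake, with a log2 fold change of -0.31 (adjusted p = 0.113 in edgeR), which DESeq2 called along with *Ctsl*, while limma-voom called *Ctsl*. *Ctsl* had 253, 234 and 231 CPM in OsxCre and 323, 356 and 392 CPM in OsxCre;Stat3fl/fl, a log2 fold change of 0.58 (adjusted p = 0.0365 in edgeR). The genotypes were well apart, yet the adjusted p was between 0.0558 and 0.139 when any one library was left out. *Ctsk* and *Ctsd*, the most counted of this list, had log2 fold changes of 0.05 and 0.19, and the median was 0.16.

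The collagens that MMPs cut did not pass: of 10 tested, 0 were called by edgeR, DESeq2 or limma-voom and 0 had an unadjusted p under 0.05. *Col1a2* and *Col1a1*, the chains of type I collagen, had log2 fold changes of -0.18 and -0.14, while the median of the list was 0.14. Of 12 tested regulators known from MMP and TIMP promoters (*Runx2*, AP-1 and ETS factors, *Cebpb*, *Atf4*, *Stat3*), 0 passed in edgeR or limma-voom, 3 (*Fos*, *Jun* and *Junb*) had an unadjusted p under 0.05 and DESeq2 called *Fos*. Without overlap between the genotypes, *Fos*, *Junb* and *Stat3* were higher in OsxCre;Stat3fl/fl, as 10.8% of all genes were, while *Runx2* overlapped at a log2 fold change of -0.19 and the most counted, *Atf4* and *Jund*, had values of 0.04 and 0.10.

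The remaining marker lists are given for the makeup of the bone. Of 8 macrophage markers tested *C1qb*, a complement subunit, rose by a log2 fold change of 0.50 (adjusted p = 0.0253 in edgeR, and between 0.0650 and 0.104 when any one library was left out). The macrophage list summed to between 548 and 577 CPM in OsxCre and between 638 and 668 CPM in OsxCre;Stat3fl/fl. Of the 8, 4 (*Cd68*, *C1qb*, *C1qc* and *Fcgr1*) had an unadjusted p under 0.05 and were higher without overlap, against 16.4% and 10.8% of all genes. DESeq2 and limma-voom each called *C1qb*, where they called 3.38% and 1.15% of all genes. In edgeR 0 of 7 endothelial, 8 fibroblast and suture mesenchyme, 3 keratinocyte and 5 neuron markers tested passed, with 2, 4, 2 and 0 at an unadjusted p under 0.05. DESeq2 called *Pdgfra* of these and limma-voom called 0.

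As a description of pattern, the genes with the highest Pearson correlation to a member over the 6 libraries were sought among 10366 other genes with a mean of at least 10 CPM. They were *Lama2*, *Ddb1* and *Pdlim3* for *Timp4* (r of 0.996 for each), *Nab2*, *Fgfr1op2* and *Hspa13* for *Mmp14* (0.983 to 0.995), *Efna1*, *Gm9761* and *Sema3g* for *Mmp13* (0.984 to 0.985) and *Glmn*, *Med16* and *1200014J11Rik* for *Mmp9* (0.965 to 0.990). The 6 points fall into 3 libraries of each genotype, whose depths also differed, and 364 genes had an r over 0.9 with *Timp4*, 176 with *Mmp14*, 66 with *Mmp13* and 32 with *Mmp9*.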

How the data were processed

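Total RNA was extracted with TRIzol, per the paper, and made into unstranded Illumina TruSeq libraries of polyadenylated RNA, per the labels. For each library the authors deposited whole-number counts per gene symbol, without normalization. The submitters' processing notes name HISAT2 and GRCm38, and the paper's methods name TopHat, mm9 and Cufflinks. Which of these, and which counting program and annotation, gave the deposited counts is not given in the sources used here. FPKM values and Cuffdiff were not used here.

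Low genes were removed (filterByExpr, count of at least 10, total of at least 15), and libraries were scaled by TMM and compared by edgeR 4.0.16 in R 4.3.3 (quasi-likelihood, two-sided) with Benjamini-Hochberg adjustment over 15600 genes, without covariates. CPM use the TMM-scaled library size. The standard error is the log2 fold change divided by the square root of F, and intervals are at 95%. DESeq2 1.42.0 and limma 3.58.1 (voom) were alternatives, as were other scalings, other filters, the replicate number as a block and leaving out each library. Single values were compared by exact permutation tests (SciPy 1.17.1). The fits were tested on simulated counts. Floors of 3 counts cover counting error only. Pairs of libraries of one genotype differed beyond counting noise (chi-square per degree of freedom from 7.51 to 15.6), so none were repeat runs of one library.

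The members and gene lists were chosen with earlier results of these data known. Genes named are the 10 members, list genes with an adjusted p under 0.05, the 2 most counted genes of each list, markers, and the 3 genes most like a member by Pearson correlation of log2(CPM + 1). Other genes named were chosen after their values were seen. Promoters and gene positions are from RefSeq (GRCm38.p6), and exon lengths and overlaps from GENCODE on mm9, used only as lengths and shares.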

Additional observations from a re-analysis of the deposited data

How the results depend on the processing

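Of 140 values of the 10 genes under 14 alternatives, 128 kept their direction and their side of an adjusted p of 0.05. The *Timp4* log2 fold change stayed between 1.49 and 1.998 with one library left out, where the count of members that passed was 0 in each fit against 1, and it was 1.66 to 1.73 under the other alternatives, passing in 7 of 8. Under the replicate block it was 1.72 (adjusted p = 0.202), 0 members passed, and 0 of the other family and pathway genes passed against 2. Same-numbered libraries had deviations with a mean correlation of -0.235, which gave no sign of pairing by number. The paper names littermates, but neither it nor the sample titles say which mice shared a litter. The main test was unpaired and takes no account of litter. No library correlated best with the one of its own number.

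With one library left out, the members at an unadjusted p under 0.05 were 1 to 3, where 1998 to 2592 of 15830 to 16210 genes tested were under it. Members without overlap were 3 to 4 there (2 with all libraries when scaled by library totals or the upper quartile). Fewer libraries overlap less readily, and the share over all genes was not counted for these fits. Other family and pathway genes passing were 0 to 1 with one library left out, 7 in DESeq2 and 1 in limma-voom. Without a filter on low counts they were 5 (*Adamts1*, *Ctsl*, *Mmp23*, *Mmp8* and *Thbs1*). Signs reversed where values were near 0: *Timp2* was -0.021 with library totals. With one library left out *Mmp9* ranged from -0.17 to 0.088, *Mmp16* from -0.092 to 0.29 and *Timp2* from -0.029 to 0.068. The cause was not tested. Over all genes, 196 passed in edgeR, 428 without a filter, 527 in DESeq2, 1 with the block and 12 to 103 with one library left out. Scaling by library totals moved the median of all genes to -0.05. *Mmp16* had the fewest counts of the members, at 13 to 26 per library, and its SE of 0.31 was close to the 0.30 of *Timp4*.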
